A study of Homo sapiens with 6 samples.

Results

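The MYC/MAX/MXD/MLX network other than MYCN was examined in SK-N-BE(2) cells, a human neuroblastoma line with amplification of MYCN. The 10 genes MYC, MYCL, MAX, MXI1, MXD1, MXD3, MXD4, MNT, MGA and MLX were chosen by name, and each was found once by its Ensembl identifier among the 58302 genes in the files. Of these, 9 had a mean of at least 1 FPKM (fragments per kilobase of gene, relative to sequencing depth) over the 6 samples and were tested with the 14462 genes that reached this level, while MYCL did not reach it.

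The study asked what knockdown of Prp19, a core splicing factor encoded by PRPF19, does to neuroblastoma cells. RNA was taken from 3 samples transfected with the negative control siRNA (NC) and 3 samples transfected with siPrp19, numbered as replicates 1, 2 and 3 in each group. Both groups are the same cell line, grown in the same medium and transfected alike. The sample labels give 72 h of transfection and the study's methods a shorter time. The labels do not name the siRNA against Prp19, and the study carried its first one forward after testing knockdown. Reads recovered from the deposited values numbered 19058784 to 21943935 on genes with NC and 22273025 to 24181789 with siPrp19. PRPF19 was at 53.1, 53.1 and 64.9 FPKM in NC replicates 1, 2 and 3. In the siPrp19 replicates it was at 21.8, 28.5 and 33.6 FPKM, so no siPrp19 sample reached an NC sample. The log2 change of PRPF19 was −1.04 (SE 0.19), with an adjusted p of 0.9999 by limma. With the replicate number as a term, its adjusted p was 0.190 by limma and 8.57e-13 by voom on recovered reads. Of the defining genes of sympathetic neuroblasts, HAND2, a transcription factor, was at 274.2 to 349.99 FPKM in NC samples and 268.2 to 338.96 FPKM in siPrp19 samples, and TH, the rate-limiting enzyme of catecholamine synthesis, at 148.1 to 242.5 FPKM and 142.6 to 240.2 FPKM. ELAVL4, a neuronal RNA-binding protein, was at 27.5, 20.9 and 32.8 FPKM in NC replicates 1, 2 and 3 and at 19.7, 15.8 and 20.93 FPKM in the siPrp19 replicates, lower in 3 of 3 pairs (log2 change −0.51, adjusted p = 0.9999 by limma and 5.99e-07 by voom on recovered reads with the replicate number as a term). DBH, which makes noradrenaline, differed by replicate number, at 44.2, 30.04 and 3.49 FPKM with NC and 41.9, 26.7 and 3.94 FPKM with siPrp19. The part of these genes in the members' values was not tested. The summed level was 2.55 to 4.06 FPKM for 5 epithelial markers. It was at most 1.49 FPKM for 4 blood markers and 0.4002 FPKM for 3 endothelial markers. The 6 mesenchymal markers, led by LUM and COL1A1, summed to 120.0 to 151.4 FPKM. Among these 6, DCN was at 3.00 to 4.56 FPKM and COL1A2 at no more than 0.0453 FPKM in any sample.

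The network is a family of basic helix-loop-helix leucine zipper proteins that bind DNA in pairs, classically at the E-box CACGTG. MYC, MYCL and MYCN activate genes of growth and metabolism only when paired with MAX. MXD1, MXI1, MXD3, MXD4 and MNT pair with the same MAX and recruit SIN3 and histone deacetylase corepressors, so that they oppose MYC at shared sites, and MGA pairs with MAX in a polycomb complex. MLX forms a parallel arm, in which it pairs with the glucose-sensing factors MLXIP and MLXIPL and also with some MXD proteins. In neuroblastoma with amplified MYCN, MYCN is the dominant member of the MYC family and MYC is usually low.

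Because the E-box is the site on which the network converges, it was looked for in the promoters of the members themselves. RefSeq promoter windows (GRCh38.p14, 250 bases before to 50 bases after the gene start) were matched for 9 of the 10 members, all but MYC. The motif CACGTG, which reads the same on both strands, was found in 3 of the 9 windows, against 7.26% of all 35116 windows and 9.62% of the 20693 windows with a GC content of at least 55%, the lowest among the members. The 3 windows with the motif have a GC content of 71.0% (MLX), 72.3% (MXD4) and 76.0% (MNT). The share among windows as rich in GC as these was not counted. The sites are shown with 12 bases on each side and the motif in capitals, written on the strand of the gene. They lie at chr17:42567038-42567067 on the plus strand for MLX, at chr4:2262330-2262359 on the minus strand for MXD4 and at chr17:2401236-2401265 on the minus strand for MNT.
MLX: gcgggcgcgggtCACGTGggcacgccaccc
MXD4: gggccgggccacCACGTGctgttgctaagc
MNT: ccctgcccgggcCACGTGtgcgcgcgccgg
Counted from the RefSeq start, the first base of the motif lies at −50 in MLX, −238 in MXD4 and −193 in MNT. A match is a sequence description, and binding was not measured.

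The members spanned a wide range of levels in these cells. By mean FPKM over the 6 samples the order was MXI1 (37.8), MXD4 (20.2), MAX (15.4), MLX (12.2), MGA (7.08), MXD1 (5.95), MXD3 (5.42), MNT (3.995), MYC (1.79) and MYCL (0.582). MXD4 exceeded MAX, and MAX exceeded MLX, in 6 of 6 samples, although their ranges over samples overlapped, and the same held for MNT over MYC. MGA and MXD1 overlapped and MGA was the higher in 4 of 6 samples, as was MXI1 over MXD4, and MXD1 was above MXD3 in only 2 of 6. The ranges did not overlap between MLX and MGA or between MXD3 and MNT. MXI1 stood above 92.9% of the tested genes by mean level and MYC above 16.9%.

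MYCN, which is no member here, set the scale of the activating arm. It was at 958.5, 849.5 and 1167 FPKM in NC replicates 1, 2 and 3 and at 1215, 801.5 and 1104 FPKM in the siPrp19 replicates, with a log2 change of 0.06 (SE 0.23, adjusted p = 0.9999 by limma with Benjamini-Hochberg adjustment). MYC came to between 0.0679% and 0.439% of MYCN, per length and within each sample. MAX, the shared partner, was between 13.7 and 16.6 FPKM, so that MYCN mRNA exceeded MAX mRNA 55.6-fold to 77.5-fold. These are mRNA levels, and protein was not measured in these files.

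**Figure D1:**
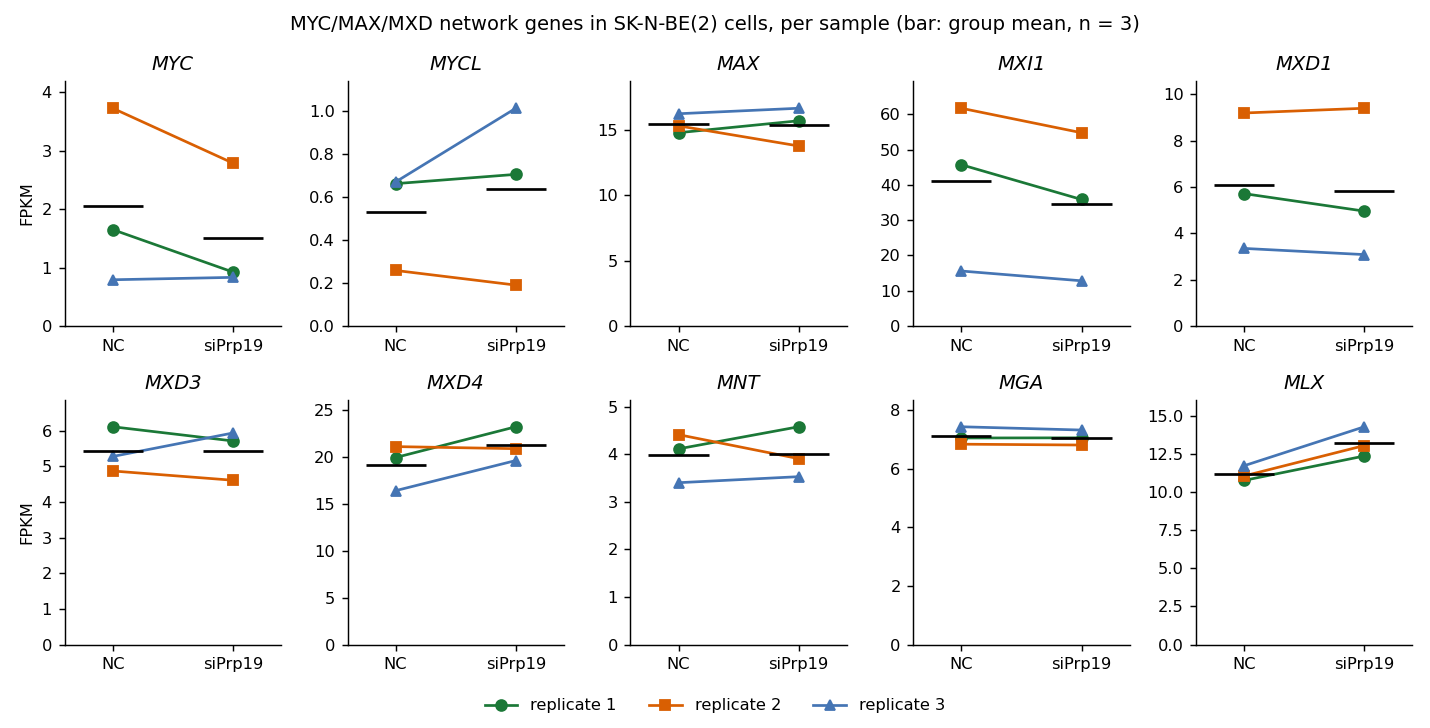
FPKM (y axis, from 0, own scale per gene) of the 10 network genes in NC and siPrp19 samples. Points joined by a line share a replicate number and black bars are group means (n = 3). MLX is higher with siPrp19 in every pair with no overlap of the groups, MXI1 is lower in every pair, and MYC, MXI1 and MXD1 are highest in replicate 2 and lowest in replicate 3 of both groups.

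MLX, the partner of the glucose-sensing factors, was higher with siPrp19 in each pair. It was at 10.8, 11.1 and 11.8 FPKM in NC replicates 1, 2 and 3 and at 12.4, 13.1 and 14.3 FPKM in the siPrp19 replicates, on 831 to 1512 reads each. Every siPrp19 sample was above every NC sample. In NC samples MLX averaged 11.2 ± 0.495 FPKM (SD, n = 3) and in siPrp19 samples 13.3 ± 0.973 FPKM (SD, n = 3), which is 118.3% of NC. Of the 9 tested members, MLX was the 1 whose groups did not overlap, and among all tested genes 2.77% had all siPrp19 samples above all NC samples and 5.61% did not overlap in either direction. Within pairs the log2 difference was 0.20, 0.24 and 0.28, and MLX was higher in 3 of 3 pairs, as were 19.2% of the tested genes. The log2 fold change was 0.24 (95% interval −0.03 to 0.51, adjusted p = 0.9999 by limma), and the exact two-sided permutation test gave p = 0.1, the smallest that 3 against 3 samples allow. Blocking on the replicate number gave an interval of 0.11 to 0.37, with an adjusted p of 0.204 by limma. With voom on the recovered reads and the block, MLX rose by 0.26 on the log2 scale (SE 0.07) with an adjusted p of 0.0142. In bulk RNA, a change in RNA per cell and a change in the share of cells that carry it cannot be told apart. Of the exon bases of MLX, 18.1% are shared with PSMC3IP on the other strand, which was at 6.005 to 8.96 FPKM with NC and 5.52 to 8.07 FPKM with siPrp19, and its part in the value of MLX was not tested.

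MLX pairs with MLXIP and MLXIPL, and both are described by their own values. MLXIP, also known as MondoA, was at 11.1 to 13.5 FPKM with NC and 10.4 to 12.9 FPKM with siPrp19 (log2 change −0.05, SE 0.14, adjusted p = 0.9999 by limma). MLXIPL, or ChREBP, was at no more than 0.0502 FPKM in any sample, from 1 to 6 reads. Of 9 genes listed as targets of this arm, 7 were tested, with 3 above 0 and 4 below 0 and a median log2 change of −0.02. TXNIP, an inhibitor of glucose uptake and the best known MLX and MondoA target, was at 118.7, 228.9 and 35.9 FPKM in NC replicates 1, 2 and 3 and at 133.3, 273.2 and 47.2 FPKM in the siPrp19 replicates. TXNIP was thus higher with siPrp19 in 3 of 3 pairs, while the groups overlapped widely and the replicate numbers differed far more than the siRNAs. Its log2 change was 0.27 (SE 0.84, adjusted p = 0.9999 by limma), and in voom with the block its adjusted p was 0.000391. SCD, a fatty acid desaturase, was the lowest of the list with a log2 change of −0.17 (SE 0.60, adjusted p = 0.9999 by limma). It was lower in 3 of 3 pairs, with an adjusted p of 0.0232 in voom with the block. That fit called 1 gene of this list higher and 1 lower, of 7 fitted, against 3.52% and 4.14% of all genes. ARRDC4, the close relative of TXNIP that shares its regulation, had a log2 change of 0.07 and was higher in 2 of 3 pairs.

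MXI1, an MXD repressor that competes with MYC proteins for MAX, was the most abundant member and went the other way. It was at 45.7, 61.7 and 15.6 FPKM in NC replicates 1, 2 and 3 and at 35.9, 54.8 and 12.8 FPKM in the siPrp19 replicates, on 1421 to 5249 reads each. The siPrp19 sample was the lower in 3 of 3 pairs, at 0.784, 0.888 and 0.822 times its NC partner, while both groups ran from a low replicate 3 to a high replicate 2 and overlapped. Of the tested genes, 21.3% were lower in 3 of 3 pairs, and MXI1 was the 1 member among them. Averages of MXI1 were 41.0 ± 23.4 FPKM in NC samples and 34.5 ± 21.0 FPKM in siPrp19 samples (SD, n = 3 in each). The log2 fold change was −0.27, with a 95% interval of −1.88 to 1.35 without the block and −0.40 to −0.13 with it, and the adjusted p values by limma were 0.9999 and 0.202. The exact two-sided permutation test, which does not use the pairs, gave p = 0.7. In voom with the block, MXI1 fell by 0.25 on the log2 scale (SE 0.06) with an adjusted p of 0.00388. The direction without the block rests on single libraries, since the log2 change was 0.13 without NC replicate 2 and 0.33 without siPrp19 replicate 3, whereas leaving out a whole pair in the blocked fit gave −0.32 to −0.23.

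The other MXD repressors moved less or not in one direction. MXD1, which rises as many cell types differentiate, was at 5.72, 9.20 and 3.35 FPKM in NC replicates 1, 2 and 3 and at 4.96, 9.41 and 3.08 FPKM in the siPrp19 replicates. Its samples followed the replicate number far more than the siRNA, with a log2 change of −0.10 (95% interval with the block −0.28 to 0.09, adjusted p = 0.564 by limma). Without the block this was 0.26 without NC replicate 2 and 0.28 without siPrp19 replicate 3. MXD4 was at 19.96, 21.1 and 16.4 FPKM in the NC replicates and at 23.2, 20.9 and 19.6 FPKM in the siPrp19 replicates, higher in 2 of 3 pairs. Its log2 change was 0.15 (95% interval with the block −0.03 to 0.33, adjusted p = 0.366 by limma, and 0.0688 in voom with the block). MXD3, the member expressed in dividing cells, ranged from 4.87 to 6.11 FPKM with NC and from 4.61 to 5.94 FPKM with siPrp19, with a log2 change of −0.0022 (95% interval with the block −0.21 to 0.20). Of the exon bases of MXD3, 40.4% are shared with RAB24 and PRELID1, and the effect of this on its value was not tested. MNT, the widely expressed MAX partner that restrains MYC, was between 3.41 and 4.58 FPKM with a log2 change of 0.01 (95% interval with the block −0.22 to 0.24).

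Per length, MXI1, MXD1, MXD3 and MXD4 summed to 77.5, 96.9 and 40.6 FPKM in NC replicates 1, 2 and 3 and to 69.8, 89.7 and 41.5 FPKM in the siPrp19 replicates. The sum was thus lower with siPrp19 in replicates 1 and 2 and slightly higher in replicate 3. MXI1 made up 59.0%, 63.7% and 38.4% of it in the NC replicates and 51.4%, 61.1% and 30.9% in the siPrp19 replicates, a smaller share in each siPrp19 sample than in its NC partner. MXD4 made up 25.8%, 21.8% and 40.4% with NC and 33.3%, 23.3% and 47.4% with siPrp19. Relative to MAX, the sum came to between 2.495-fold and 6.53-fold over all samples.

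**Figure D2:**
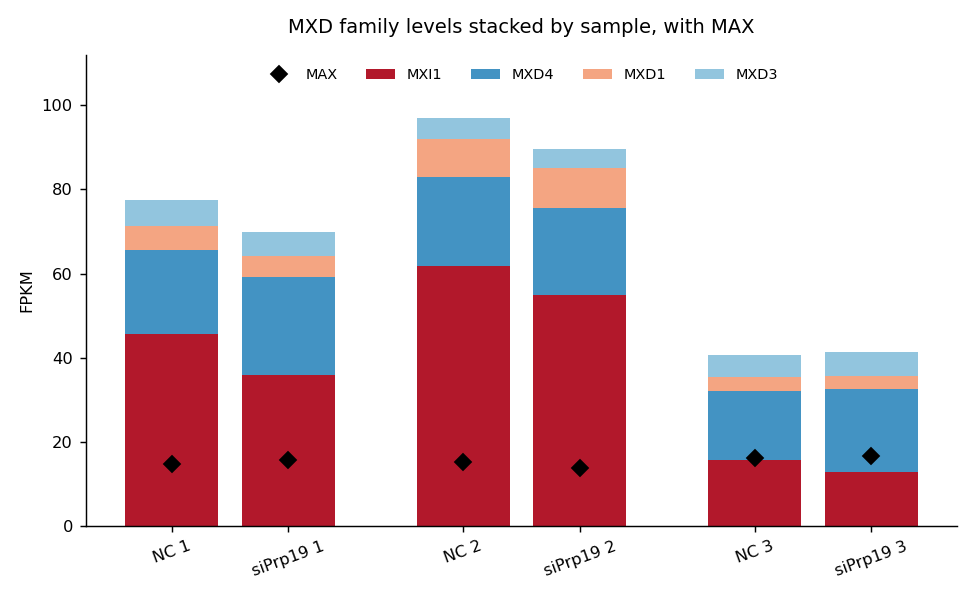
FPKM (y axis, from 0) of MXI1, MXD4, MXD1 and MXD3 stacked for each sample, in same-numbered pairs of NC and siPrp19, with MAX as a diamond. The stack is 40.6 and 41.5 FPKM in the replicate 3 pair against 69.8 to 96.9 FPKM in the others, mainly through MXI1, while MAX stays between 13.7 and 16.6 FPKM.

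MYC itself was low and variable. It was at 1.65, 3.73 and 0.792 FPKM in NC replicates 1, 2 and 3 and at 0.924, 2.79 and 0.833 FPKM in the siPrp19 replicates. These levels rest on 108, 197 and 47 reads in the NC samples and 63, 174 and 62 reads in the siPrp19 samples. Replicate 2 was the highest and replicate 3 the lowest in each group, and the siPrp19 sample stood at 0.560, 0.748 and 1.05 times its NC partner. The 95% interval of the log2 change of −0.37 was −1.93 to 1.18 without the block and −0.91 to 0.17 with it (adjusted p = 0.450 by limma with the block and 0.137 in voom with the block). Without NC replicate 2 the change was 0.17, and without the pair of replicate 1 in the blocked fit it was −0.17. MYCL, the third MYC paralog, was at 0.661, 0.258 and 0.669 FPKM with NC and at 0.704, 0.190 and 1.01 FPKM with siPrp19, from 20 to 127 reads per sample. MYCL was lowest in replicate 2 of each group, where MYC was highest. Its log2 change of 0.10, fitted with no filter on low values, had a 95% interval of −0.70 to 0.91 with the block.

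MAX and MGA, the shared partner and its polycomb-linked partner, lay close to 0. MAX was at 14.8, 15.3 and 16.2 FPKM in NC replicates 1, 2 and 3 and at 15.7, 13.7 and 16.6 FPKM in the siPrp19 replicates, a log2 change of −0.01 (95% interval −0.30 to 0.28, and −0.18 to 0.16 with the block). MGA, the largest network protein, was between 6.83 and 7.42 FPKM with NC and between 6.80 and 7.31 FPKM with siPrp19, a log2 change of −0.01 (95% interval −0.27 to 0.25, and −0.15 to 0.13 with the block). As folds, the interval with the block ran from 0.903 to 1.09 for MGA, from 0.884 to 1.12 for MAX and from 0.531 to 1.12 for MYC. The sign changed with quantile normalization for MGA and MXD3, with TPM (FPKM rescaled to an equal total per sample) for MXD3, and for MAX, MGA and MXD3 in voom on the recovered reads, with log2 changes from −0.0098 to 0.0094 for MAX, from −0.0089 to 0.0071 for MGA and from −0.0022 to 0.016 for MXD3 over the alternatives with all samples.

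**Figure D3:**
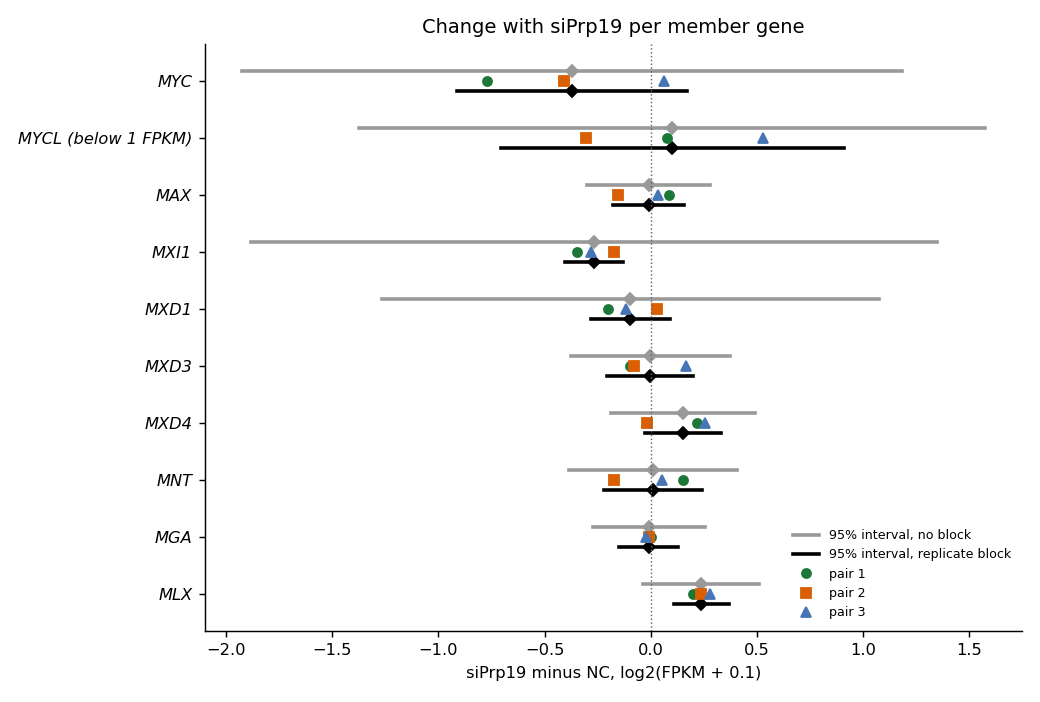
Difference siPrp19 minus NC in log2(FPKM + 0.1) (x axis) for each member. Coloured points are the same-numbered pairs, diamonds the mean, grey lines the 95% interval without and black lines with the replicate block. The blocked intervals of MXI1 (−0.40 to −0.13) and MLX (0.11 to 0.37) lie to one side of 0, and those of the other members include it.

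In all, 0 of the 9 tested members had an adjusted p under 0.05 by limma, without or with the block, as was so for 0% of all genes tested in either fit. PRPF19, the siRNA target, was not called by limma either (adjusted p = 0.9999 without the block and 0.190 with it). The lack of a call in these fits therefore does not show that a gene was unchanged. At an unadjusted p under 0.05 there were 0 of 9 without the block, where 225 genes (1.56%) reached it, and 2 of 9 (MXI1 and MLX) with the block, where 15.7% of all genes did. In voom with the block, 2 of 9 passed an adjusted p of 0.05, against 7.66% of the 13601 genes fitted, of which 3.52% were higher and 4.14% lower with siPrp19. With the block and a mean of at least 5 FPKM, 0 of 7 members passed, against 1.57% of genes (0.43% higher and 1.14% lower), and the adjusted p by limma was 0.0705 for MXI1 and 0.0852 for MLX. The median log2 change of the 9 members was −0.01, and the median over all genes was −0.0040. The median size of the change, without its sign, was 0.10 for the members and 0.10 for all genes.

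The larger differences among samples ran between replicate numbers. The means of the replicate numbers spanned 4.09-fold for MXI1, 3.65-fold for MYC and 2.84-fold for MXD1, wider than 97.0%, 96.4% and 94.6% of the tested genes. By contrast the span was 1.08-fold for MGA, 1.12-fold for MLX and 1.13-fold for MAX, within the lowest 4.90%, 10.3% and 12.1%. Of the sum of squares on the log2 scale, the replicate number held 98.8% for MXD1, 97.5% for MXI1 and 90.6% for MYC, and a median of 80.9% over all tested genes. For MLX it held 24.1% and the siRNA 74.3%, against a median of 5.68% for the siRNA over all genes, with the siRNA value of MLX taken from the same contrast as its fold change. The replicate number has 2 degrees of freedom and the siRNA 1, so their shares are not on an equal footing. MYC, MXI1 and MXD1 had replicate 2 above 1 above 3 in both groups, an order that 17.2% of tested genes shared. The cause of the difference between replicate numbers was not tested.

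**Figure D4:**
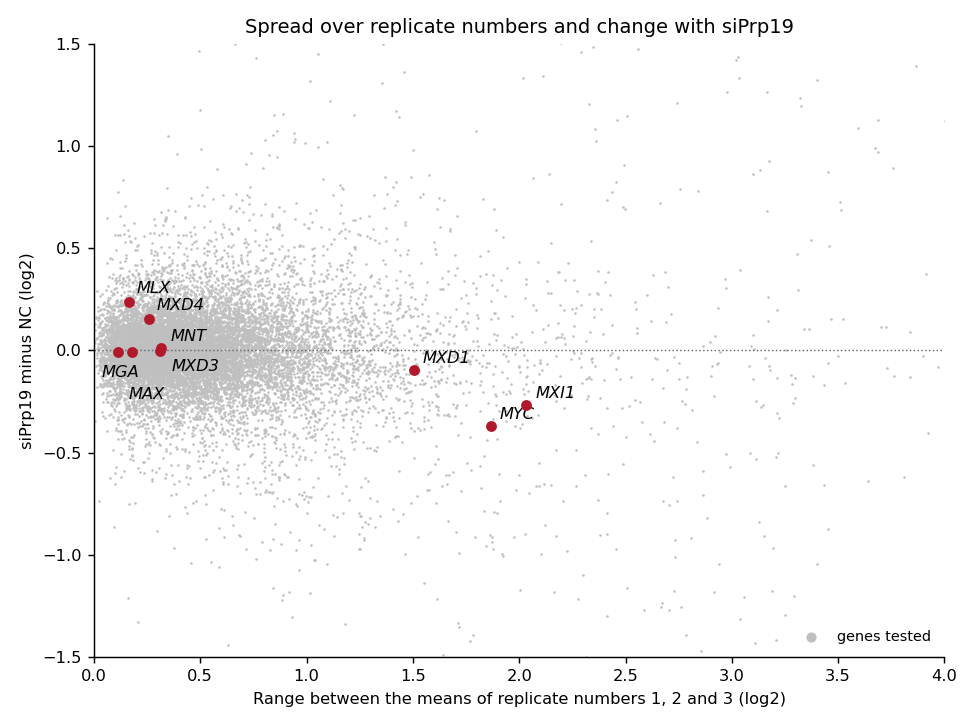
Range between the means of replicate numbers 1, 2 and 3 (x axis, log2) against the change siPrp19 minus NC (y axis, log2) for tested genes (grey) and the 9 tested members (red). 161 genes lie outside the axes. MXI1, MYC and MXD1 stand far to the right at 1.504 to 2.03, and the other 6 members lie at 0.32 or less.

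The genes most like MYC over the 6 samples, by Pearson's r of log2(FPKM + 0.1), were NDEL1 (r = 0.999), NOCT (0.997), NFIL3 (0.997), CAVIN1 (0.996) and TP53BP2 (0.995). The 6 points are 3 pairs that share a replicate number, and 1217 tested genes had an r of at least 0.9 with MYC. NOCT, NFIL3, CAVIN1 and TP53BP2 were lower with siPrp19 in 3 of 3 pairs, as were 21.3% of all tested genes, and NDEL1 and MYC in 2 of 3. Since r was taken over samples of both groups, a direction shared with MYC is partly built into the choice of these genes. NFIL3, a basic leucine zipper repressor, was at 11.1, 20.5 and 5.99 FPKM in the NC replicates and 7.26, 16.5 and 5.90 FPKM in the siPrp19 replicates.

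The partners through which the network acts were followed in gene lists. Of 9 partners of MGA in its polycomb complex (PRC1.6), 8 were below 0 and 1 above, and 5 were lower in 3 of 3 pairs (21.3% of all tested genes were). The median log2 change was −0.08, against −0.0040 over all tested genes. Several lay within their SE of 0, such as RING1 at −0.01 (SE 0.14) and L3MBTL2 at −0.04 (SE 0.33). CBX3, which encodes the heterochromatin protein HP1 gamma, was at 73.9, 78.0 and 88.8 FPKM in NC replicates 1, 2 and 3 and at 55.3, 57.7 and 64.7 FPKM in the siPrp19 replicates, with no overlap of the groups. Among all tested genes, 2.84% had all siPrp19 samples below all NC samples. The log2 change of CBX3 was −0.44 (SE 0.13, adjusted p = 0.9999 by limma, and 0.190 with the block), and in voom with the block its adjusted p was 1.05e-06. RYBP, a subunit shared by polycomb complexes, was lower in 3 of 3 pairs (log2 change −0.23, SE 0.40), and PCGF6, the subunit that defines this complex, had a log2 change of 0.06 (SE 0.22). No partner had an adjusted p under 0.05 by limma in either fit, and in voom with the block CBX3 and RYBP did, out of 8 fitted, against 7.66% of all genes in that fit (4.14% lower).

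Among 10 SIN3 and HDAC corepressor genes, which MXD proteins recruit, 4 were above and 6 below 0, with a median of −0.02. HDAC1, a histone deacetylase, was the highest at 0.17 (SE 0.12), from 29.6, 31.4 and 32.2 FPKM to 31.7, 38.4 and 34.9 FPKM in replicates 1, 2 and 3, and SAP30 the lowest at −0.08 (SE 0.38). HDAC1 alone of the 10 fitted in this list passed in voom with the block (adjusted p = 0.0439), where 7.66% of all genes did (3.52% higher). Of 16 MYC cofactors, 9 were above and 7 below 0, from −0.12 for MYCBP (SE 0.42), a MYC-binding protein whose exons overlap other genes over 36.7% of their bases, to 0.20 for TFAP4 (SE 0.20), a helix-loop-helix factor induced by MYC. Of 14 genes of MYC protein turnover, 8 were above and 6 below 0. SKP2, a ubiquitin ligase subunit that targets MYC, was the lowest at −0.26 (SE 0.14), lower in 3 of 3 pairs. Its adjusted p was 0.00671 in voom with the block, the 1 call of 12 fitted, against 7.66% of all genes (4.14% lower). AXIN1, a scaffold for MYC degradation, was the highest at 0.19 (SE 0.15).

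The list of 31 MYC target genes showed no common direction. Of 30 tested, 14 were above and 16 below 0, with a median log2 change of −0.01, and 7 were higher and 8 lower in 3 of 3 pairs, against 19.2% and 21.3% of all tested genes. ODC1, the first enzyme of polyamine synthesis, was the highest at 0.18 (SE 0.31), from 43.1, 42.9 and 73.5 FPKM with NC to 49.1, 47.1 and 86.1 FPKM with siPrp19 in replicates 1, 2 and 3. It was higher in 3 of 3 pairs and was the 1 target gene with an adjusted p under 0.05 in voom with the block (0.0162, of 27 fitted). In that fit 7.66% of all genes passed (3.52% higher). EIF4A1, a translation initiation helicase, was the lowest at −0.26 (SE 0.19), but its exons overlap other genes over 48.6% of their bases. It was at only 1.5999 to 2.59 FPKM. For EIF4A1 and DDX18 of this list every siPrp19 sample was below every NC sample, as for 2.84% of all tested genes. By limma, 0 of these 30 genes had an adjusted p under 0.05 with or without the block.

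**Figure D5:**
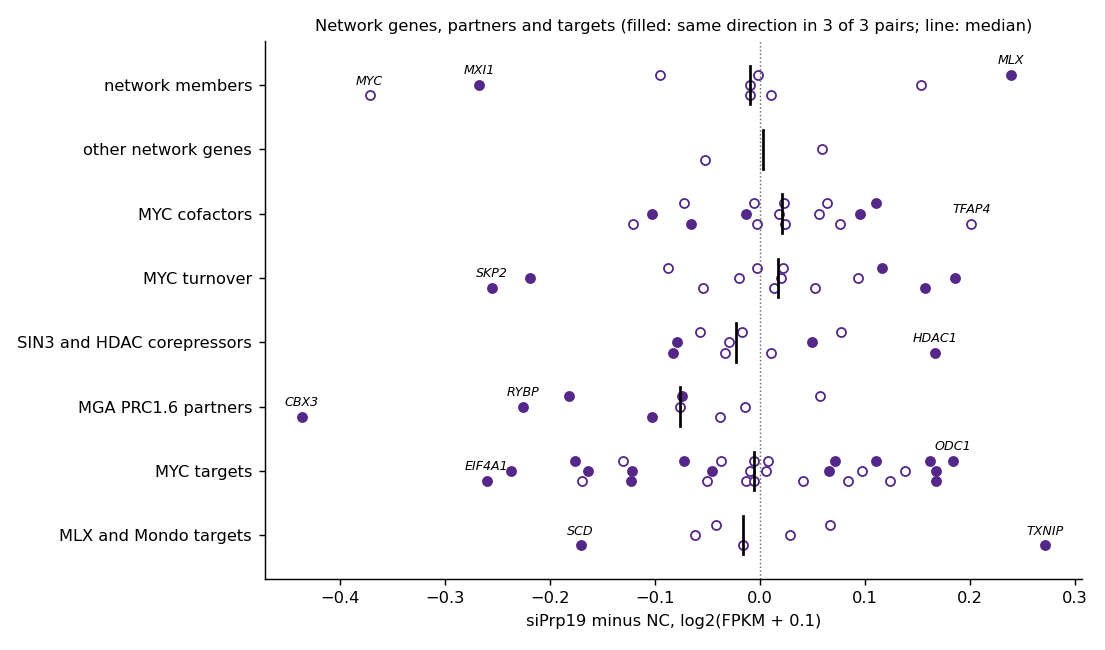
Difference siPrp19 minus NC in log2(FPKM + 0.1) (x axis) for tested genes of each list (rows), filled where 3 of 3 pairs share a direction, with the list's median as a black line. List medians lie between −0.08 (MGA partners) and 0.02 (MYC cofactors), and CBX3 at −0.44 and TXNIP at 0.27 lie farthest from 0 on either side.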

How the data were processed

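RNA-seq was performed on 6 samples of SK-N-BE(2) cells, 3 with NC and 3 with siPrp19. The authors deposited FPKM per gene and sample, and per the labels' processing notes used HISAT2 (2.0.5) and featureCounts (1.5.0-p3) on hg38, with strand use in counting not given in the sources used here. The members and gene lists were chosen with earlier results of these data known.

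Genes averaging 1 FPKM or more were tested on log2(FPKM + 0.1) with limma 3.58.1 (R 4.3.3, trended variance) and Benjamini-Hochberg adjustment, and calls were made at an adjusted p under 0.05. Fold changes are on this scale, which understates changes of low genes. A gene's FPKM was multiplied by its GENCODE 29 exon length to recover reads. Of 58039 matched genes, 97.3% gave whole reads in all samples within 0.05 reads, or 95.9% leaving out genes at 0 throughout, and these were fitted with voom as an alternative. MYC had the fewest recovered reads among the tested members, which limits its precision. FPKM are set by all genes in a library, so a level is relative.

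The study's methods call the samples biological replicates. Same-numbered samples deviated together from their group means (r = 0.381 to 0.639 over genes), so the numbers were taken as pairs and a fit with the replicate number as a block is given beside the results. Intervals are 95% intervals of the fits. Permutation tests were exact and two-sided. Named genes were the members, MYCN, MLXIP, MLXIPL, the targeted gene, the genes highest and lowest in each list and the 5 genes most like MYC. RYBP, ARRDC4 and, among cell type markers, HAND2, TH, DBH, ELAVL4, LUM, COL1A1, DCN and COL1A2 fall outside this rule. They were chosen after their values were seen, as were the genes named under the other observations. Other pseudocounts, filters, scalings and left-out samples were tried. Promoters are from RefSeq and were matched by symbol.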

Additional observations from a re-analysis of the deposited data

How the results depend on the processing

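With trended variance and all 14462 genes averaging 1 FPKM or more, adding the replicate block changed no call by limma. There 0 were called, with smallest adjusted p values among the members of 0.202 for MXI1 and 0.204 for MLX. With no trend and a robust fit, 1 gene was called without the block and 0 with it. At a mean of at least 5 FPKM, 0 were called without the block and 124 with it. In voom with the block 1042 genes were called, among them 2 members, MXI1 (−0.25) and MLX (0.26). In voom without the block 0 genes were called and 171 had an unadjusted p under 0.05. Over the blocked limma fits with all samples the adjusted p ran from 0.0705 to 0.464 for MXI1 and from 0.0852 to 0.463 for MLX. The block with no filter, with TPM (FPKM rescaled to an equal total per sample) and with quantile normalization was added after seeing the data. The cause of these differences was not tested.

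The sign turned for members near 0. MXD3 was 0.0022 with TPM and 0.0074 with quantile normalization, with or without the block, and 0.010 in voom and 0.016 in voom with the block. MGA was 0.0071 with quantile normalization, with or without the block, 0.0054 in voom and 0.0050 in voom with the block. MAX was 0.0062 in voom and 0.0094 in voom with the block. Leaving out 1 sample gave log2 changes from −0.89 to 0.17 for MYC, −0.069 to 0.067 for MAX, −0.85 to 0.33 for MXI1, −0.51 to 0.28 for MXD1, −0.075 to 0.11 for MXD3, 0.05 to 0.23 for MXD4, −0.10 to 0.10 for MNT, −0.036 to 0.023 for MGA and 0.18 to 0.29 for MLX, and a median of the members from −0.044 to 0.13. Leaving out 1 pair in the blocked fit gave −0.058 to 0.061 for MAX, −0.087 to 0.045 for MXD3 (0.036 without the pair of replicate 2) and −0.060 to 0.10 for MNT (−0.010 without the pair of replicate 3), while MYC, MXI1, MXD1, MXD4, MGA and MLX kept their sign. The number of genes called was 0 in each of these.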

Other observations

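The genes most like MXI1 and MXD1 over the 6 samples were looked up after the values of both had been seen. For MXI1 they were MTFP1, PDE4DIP, LOX, ALKBH5 and TICRR, with Pearson's r of 0.999 for each, and 1534 tested genes reached an r of at least 0.9. LOX, which encodes lysyl oxidase, was at 11.03, 16.1 and 3.22 FPKM in NC replicates 1, 2 and 3 and at 8.89, 15.0 and 2.63 FPKM in the siPrp19 replicates. For MXD1 they were LTN1, WDR45B, WDR13, TENT4A and SLC6A8, and 1747 genes reached an r of at least 0.9. The points are 3 pairs that share a replicate number.

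Among the genes of glucose use in the list of MYC targets, SLC2A1, HK2 and ENO1 had replicate 2 above 1 above 3 in both groups, as MXI1 did, and LDHA did not. They were chosen after their values were seen. SLC2A1, the main glucose transporter of dividing cells, was at 143.8, 286.1 and 18.8 FPKM in NC replicates 1, 2 and 3 and at 107.9, 271.7 and 20.1 FPKM in the siPrp19 replicates. HK2, a hexokinase, was at 152.5, 217.8 and 30.2 FPKM with NC and at 149.3, 238.5 and 30.7 FPKM with siPrp19. LDHA, a lactate dehydrogenase, was at 6.71, 5.58 and 7.37 FPKM with NC and at 6.78, 7.396 and 7.85 FPKM with siPrp19. The range between the means of replicate numbers was 3.84 for SLC2A1, 2.90 for HK2, 1.36 for ENO1 and 0.24 for LDHA on the log2 scale, against 2.03 for MXI1 and a median of 0.46 over all tested genes. The cause was not tested.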
